A study of Homo sapiens with 6 samples.

Results

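The genes described here were 9 components of the tight junction: CLDN1, CLDN2, CLDN3, CLDN4, CLDN7 and CLDN12, which encode claudins, OCLN, which encodes occludin, F11R, which encodes the junctional adhesion molecule JAM-A, and TJP1, which encodes the scaffold protein ZO-1. They were taken by symbol from the gene table, and all 9 were found among its 58735 genes, each on 1 row. HCT116, the cell line sequenced, is an epithelial line from a human colorectal carcinoma and is labelled as wild type. The control group (CTR) held 3 libraries of control-transfected cells, and the miR-8485 group held 3 libraries of cells that received miR-8485 mimics at 50 nM. The study's methods give 48 h after transfection, or other stated times, for collecting cells, and name no time for the RNA-seq libraries. The sequence and dose of the control transfection were not given in the sources used here. The study overexpressed miR-8485 to examine its role in colon adenocarcinoma, and the comparison of both groups shows how the mRNA of the tight junction stood after the mimic.

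Tight junctions seal the space between neighbouring epithelial cells close to their apical side and separate the apical from the basolateral membrane. Claudins form the strands of the junction, and the set of claudins in a cell decides which ions pass between cells. Occludin and JAM-A are further membrane proteins of the junction, and ZO-1 binds their tails inside the cell and links them to actin. In the colon, tight junctions keep the gut contents apart from the tissue below.

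Levels were given as FPKM, the fragments of a gene scaled by gene length and library total. Levels of different genes set side by side therefore rest on the gene lengths used for the scaling. The libraries held 17473874 to 18480047 fragments on listed genes. The chi-square per gene for a pair of libraries was 2.75 to 10.5 within a group and 61.0 to 70.3 between groups. The highest values within a group, 10.5 and 8.46, both involved CTR replicate 1, and the other pairs within a group reached at most 3.87. A gene was called higher or lower in miR-8485 at an adjusted p under 0.05 (limma on log2(FPKM + 0.1), two-sided, Benjamini-Hochberg adjustment over the 12349 genes whose mean was 1 FPKM or more). By this rule 59.6% of all tested genes were called, 29.1% as higher and 30.5% as lower, and in 66.5% the libraries of both groups did not overlap. The median log2 fold change over all tested genes was -0.0041, and the middle 50% of them lay between -0.33 and 0.33. The epithelial marker EPCAM stood at 135 FPKM in CTR and 130 in miR-8485. The summed FPKM of 7 epithelial markers, most of it from KRT8, KRT18 and KRT19, was 2598 to 2823 in CTR and 1726 to 1811 in miR-8485. These 3 keratins were called lower, while KRT20 was called higher (log2 fold change 1.33, limma, adjusted p = 0.00578), from 0.730 to 2.02 FPKM, passing the filter through its miR-8485 libraries. The summed FPKM of 11 markers of other cell types was 5.47 to 6.34 in CTR and 9.72 to 10.01 in miR-8485, with CD3E and DCN at 0 in all 6 libraries. Of these 11 markers, COL1A1 and ACTA2 passed the filter and were called higher, ACTA2 passing only through its miR-8485 libraries (0.973 and 2.57 FPKM). COL1A2 had 1 fragment in all, and PECAM1 was lower in every miR-8485 library at 2 to 12 fragments. ALB, also below the filter, had 1, 1 and 3 fragments in CTR and 28, 14 and 24 in miR-8485. It was called higher in a fit of all 31768 genes above 0 (log2 fold change 1.81, limma, adjusted p = 0.0104), in which 22.1% of genes were called. The part of these shifts in the results below was not tested. In bulk RNA, a change in the RNA of each cell and a change in the mix of cells cannot be told apart.

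A miRNA binds mRNAs mostly through its seed, bases 2 to 8, which pair with a complementary site in the 3′ UTR. The mimic is shown first because its seed defines the site searched in the tight junction genes. It has 17 bases as the study's methods give it, with the seed in capitals, and the seed pairs with TGTGTGT.
miR-8485 mimic: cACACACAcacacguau

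The site was searched on the transcript strand of the 3′ UTR of each gene's canonical transcript (GENCODE release 44, GRCh38/hg38), counting overlapping copies. OCLN held 11 copies in 4433 bases, F11R held 14 copies in 3660 bases and CLDN2 held 5 copies in 1940 bases. The 3′ UTRs of CLDN1, CLDN3, CLDN4, CLDN7 and CLDN12 held 0 copies, and that of TJP1 held 0 in its 1443 bases, while the longest annotated 3′ UTR of TJP1, with 2228 bases, held 2. For comparison, 28.9% of 10671 canonical 3′ UTRs of tested genes held at least 1 copy, and 30.2% of 10673 longest ones. The copies overlap because they lie in runs of alternating T and G, of 24 bases in OCLN, 26 in F11R and 13 in CLDN2 at their longest. The following windows show the start of the longest run in each of the 3 genes, 5′ to 3′ on the transcript strand, with 1 copy of the site in capitals. They lie at chr5:69555227-69555255 on the plus strand, at chr1:160995756-160995784 on the minus strand and at chrX:106930708-106930736 on the plus strand.
OCLN: cctggcctaagTGTGTGTgtgtgtgtgtg
F11R: atcaccattttTGTGTGTgtgtgtgtgtg
CLDN2: tgatcgttattTGTGTGTgtgtgtccgat
A match of letters describes the sequence and does not show that the mimic binds there.

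Of the 9 tight junction genes, 7 passed the filter on low values, and all 7 were called. CLDN3 and CLDN7 were upregulated, and CLDN4, CLDN12, OCLN, F11R and TJP1 were downregulated. In each of these 7 genes, the libraries of both groups did not overlap. These counts stand against 59.6% called and 66.5% not overlapping among all tested genes. The median log2 fold change of the 7 genes was -0.32. None of the 7 changed by more than 1 on the log2 scale. CLDN1 and CLDN2 lay below the filter, and both were lower in miR-8485 without being called.

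**Figure D1:**
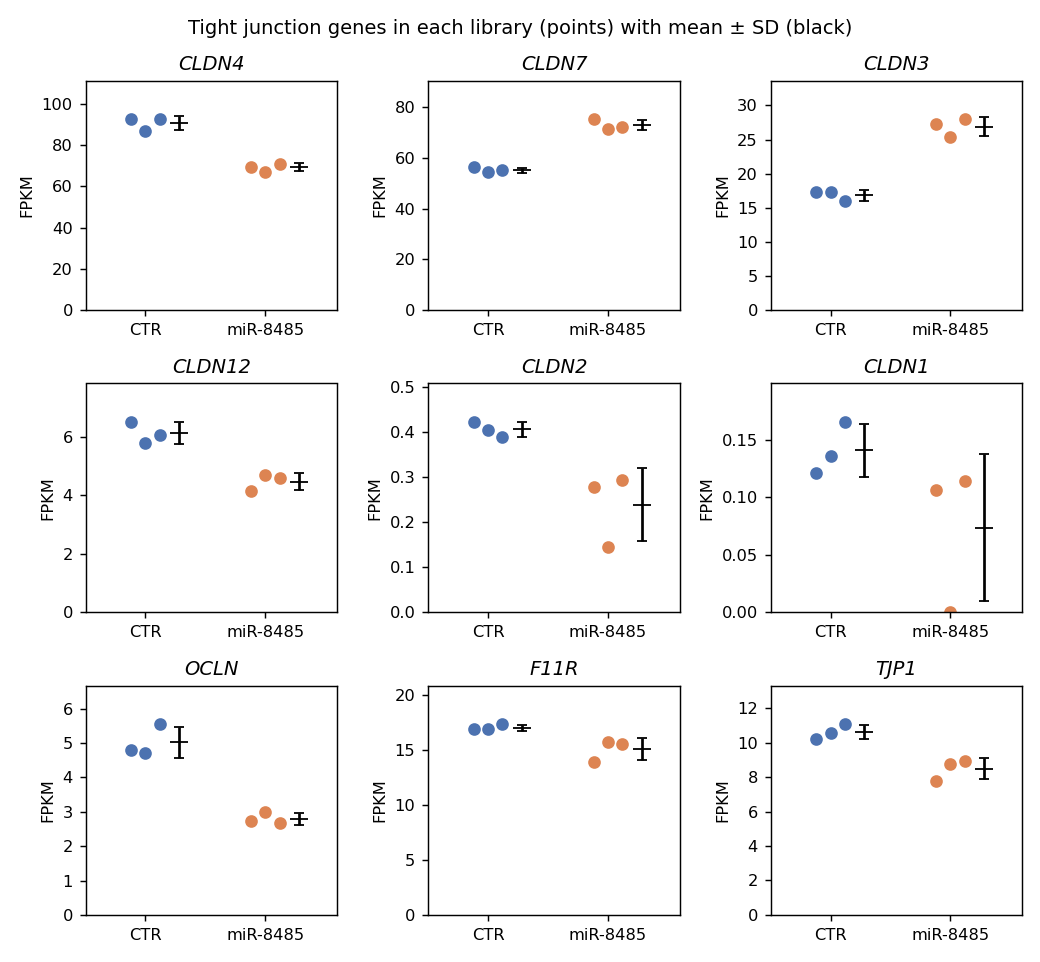
FPKM of the 9 tight junction genes in each of the 3 CTR and 3 miR-8485 libraries, with 1 point per library and the mean ± SD of each group beside the points. Only CLDN7 and CLDN3 lie higher in miR-8485, and in the other 7 genes all miR-8485 points lie below all CTR points.

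CLDN4 encodes a sealing claudin of the intestinal epithelium that, like CLDN3, is a receptor of Clostridium perfringens enterotoxin. It had the highest level of the 9 genes in CTR, above 96.8% of all tested genes. The gene occupies bases 73799542 to 73832693 of chromosome 7 (plus strand) (hg38). CLDN4 stood at 92.7, 86.8 and 92.6 FPKM in CTR replicates 1 to 3, and at 69.7, 67.2 and 71.0 FPKM in miR-8485 replicates 1 to 3. All 3 miR-8485 libraries were low and the groups were well apart. The mean was 90.7 ± 3.40 FPKM in CTR and 69.3 ± 1.95 FPKM in miR-8485 (SD, n = 3 each). The log2 fold change was -0.39 with an SE of 0.05 and a 95% interval of -0.49 to -0.28, and CLDN4 was called lower (limma, adjusted p = 0.00027). Between 5712 and 7878 fragments per library stood behind these levels.

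CLDN7 encodes a claudin that is also found along the lateral membrane, below the junction itself. It occupies bases 7259903 to 7263983 of chromosome 17 (minus strand). CLDN7 reached 56.3, 54.3 and 55.1 FPKM in the CTR libraries and 75.3, 71.5 and 72.1 FPKM in the miR-8485 libraries. All miR-8485 libraries were high, and the spread within each group was small beside the gap. The mean rose from 55.2 ± 1.0 to 73.0 ± 2.05 FPKM (SD, n = 3 each). The log2 fold change was 0.40 with an SE of 0.04 (limma, adjusted p = 0.00013), close in size to that of CLDN4 and opposite in sign. The 3′ end of CLDN7 overlaps ELP5 on the opposite strand, which stood at 12.2 FPKM in CTR and 18.3 FPKM in miR-8485. Whether the authors' counting used strand was not given in the sources used here, so reads of both genes cannot be told apart in the overlap.

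CLDN3, a sealing claudin, had the largest rise of the 9 genes. It is a short gene of 1274 bases at bases 73768997 to 73770270 of chromosome 7 (minus strand), and 29.3 kb separate it from CLDN4 with 0 listed genes between. CLDN3 was at 17.2, 17.3 and 15.9 FPKM in CTR and at 27.3, 25.4 and 27.98 FPKM in miR-8485. Its lowest miR-8485 library was far above its highest CTR library. The mean was 16.8 ± 0.772 FPKM in CTR and 26.9 ± 1.32 FPKM in miR-8485 (SD, n = 3 each), with a log2 fold change of 0.68 (SE 0.06, 95% interval 0.54 to 0.81, limma, adjusted p = 5.4e-05). CLDN3 and CLDN4 are neighbours in the genome, and 1 rose while the other fell.

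CLDN12 encodes a claudin that lacks the tail motif by which most claudins bind ZO proteins. It occupies bases 90383721 to 90513402 of chromosome 7 (plus strand). CLDN12 measured 6.52, 5.79 and 6.07 FPKM in CTR and 4.15, 4.68 and 4.60 FPKM in miR-8485. The groups did not overlap, and miR-8485 replicate 1 was the lowest library. The mean of 6.13 ± 0.371 FPKM in CTR and 4.48 ± 0.283 FPKM in miR-8485 (SD, n = 3 each) gave a log2 fold change of -0.44 (SE 0.07, limma, adjusted p = 0.00147). CLDN12 shares its strand with the overlapping genes GTPBP10, at 2.72 and 3.13 FPKM in CTR and miR-8485, and CDK14, at 0.539 and 0.882 FPKM. Both overlapping genes had higher means in miR-8485, the reverse of CLDN12.

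CLDN2 and CLDN1 had few fragments. CLDN2 encodes a claudin that forms a channel for cations and water. It had 26, 25 and 24 fragments in CTR and 17, 9 and 19 in miR-8485, or 0.423, 0.405 and 0.389 FPKM against 0.278, 0.146 and 0.293 FPKM. Every miR-8485 library was lower than every CTR library, but with these counts the log2 fold change of -0.61 had an SE of 0.32, and it was not called in the fit of all 31768 genes above 0 (limma, adjusted p = 0.267), in which 22.1% of genes were called. CLDN2 occupies bases 106900164 to 106930861 of chromosome X (plus strand), inside the span of MORC4 on the opposite strand, which stood at 6.98 FPKM in CTR and 4.05 FPKM in miR-8485. CLDN1, which encodes the main claudin of the skin barrier, had 8, 9 and 11 fragments in CTR and 7, 0 and 8 in miR-8485. The 0 fragments in miR-8485 replicate 2 allow a level of up to 0.0453 FPKM by counting error alone (3 fragments). The mean FPKM of CLDN1 was 0.141 ± 0.0228 in CTR and 0.0737 ± 0.0639 in miR-8485 (SD, n = 3 each), a log2 fold change of -0.55 (SE 0.38) that was not called (limma, adjusted p = 0.432). For both genes the 95% interval of the log2 fold change included 0, from -1.47 to 0.38 for CLDN1 and from -1.38 to 0.16 for CLDN2.

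OCLN had the largest change of the 9 genes. Occludin was the first membrane protein found in tight junctions, and it regulates their strands without being needed to form them. The gene occupies bases 69492292 to 69558104 of chromosome 5 (plus strand), and its canonical 3′ UTR, with 11 copies of the site shown above, covers 69553672 to 69558104. OCLN was at 4.78, 4.72 and 5.55 FPKM in CTR, from 577 to 679 fragments, and at 2.72, 2.98 and 2.68 FPKM in miR-8485, from 330 to 365 fragments. All 3 miR-8485 libraries were low, and CTR replicate 3 was the highest library. The mean fell from 5.02 ± 0.462 to 2.79 ± 0.166 FPKM (SD, n = 3 each). This was a log2 fold change of -0.82 (SE 0.09, 95% interval -1.02 to -0.62, limma, adjusted p = 0.00017), and 13.9% of all tested genes had a larger change in either direction. The pseudogene OCLNP1 had 6, 7 and 7 fragments in CTR and 4, 16 and 10 in miR-8485, few beside the fragments on OCLN itself. How reads that match both were counted was not given in the sources used here.

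F11R had the smallest change of the 7 genes tested. JAM-A, its product, is an immunoglobulin-like adhesion protein that helps to place polarity proteins at the junction. The gene occupies bases 160995211 to 161021348 of chromosome 1 (minus strand), and its canonical 3′ UTR, from 160995211 to 160998870, holds the 14 copies of the site, the most of the 9 genes. F11R stood at 16.9, 16.9 and 17.4 FPKM in CTR and at 13.9, 15.8 and 15.5 FPKM in miR-8485. The groups did not overlap, but miR-8485 replicate 1 lay well below the other two. The mean went from 17.0 ± 0.275 to 15.1 ± 1.0 FPKM (SD, n = 3 each), a log2 fold change of -0.18 (SE 0.06, limma, adjusted p = 0.0316). F11R was called lower only narrowly, since under 17 alternatives the call was lost in 8, with adjusted p-values from 0.0094 to 0.0886 over all of them (limma). Without CTR replicate 1, 2 or 3 the adjusted p was 0.0505, 0.0649 or 0.0886, and without miR-8485 replicate 1 the log2 fold change was -0.12 (limma, adjusted p = 0.0764). The part of the sites in the change of any of these genes was not tested.

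TJP1 encodes ZO-1, the scaffold under the membrane proteins. It is the longest of the 9 genes, with 11265 bases, at bases 29699367 to 29968865 of chromosome 15 (minus strand). TJP1 was found at 10.2, 10.6 and 11.1 FPKM in CTR and at 7.79, 8.75 and 8.97 FPKM in miR-8485. Every miR-8485 library was lower than every CTR library, and miR-8485 replicate 1 was again the lowest. The mean fell from 10.6 ± 0.434 to 8.50 ± 0.624 FPKM (SD, n = 3 each), with a log2 fold change of -0.32 (SE 0.07, limma, adjusted p = 0.00477). TJP1 contains the pseudogene HMGN2P5 on the opposite strand, at 5.68 FPKM in CTR and 3.15 FPKM in miR-8485. Its relative TJP3, the ZO-3 gene, stood at 16.8 and 18.0 FPKM and was not called (log2 fold change 0.10). TJP3 was named here after its values were seen.

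**Figure D2:**
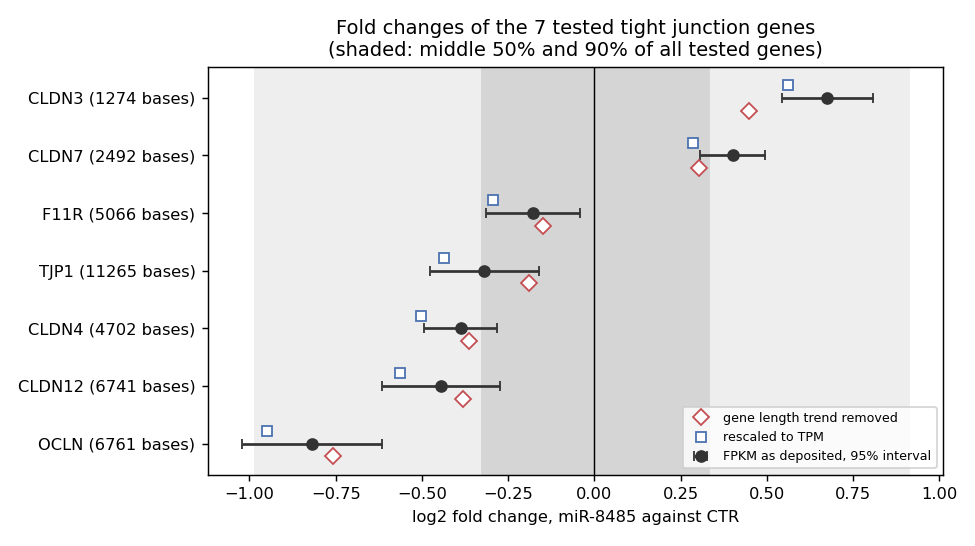
Log2 fold changes of the 7 tested tight junction genes in miR-8485 against CTR, with 95% intervals (black points) beside the values after rescaling to TPM (squares) and after removal of the gene length trend (diamonds). The grey bands hold the middle 50% and 90% of all tested genes, and OCLN at -0.82 and CLDN3 at 0.68 lie at the 2 ends.

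The fold changes moved with gene length over the whole table. In 5 equal groups of genes from the shortest to the longest, the median log2 fold change was 0.20, 0.06, -0.03, -0.06 and -0.12. CLDN3 and CLDN7, the genes that rose, are the shortest of the 9, with 1274 and 2492 bases. With the length trend removed, the log2 fold change of CLDN3 was 0.45 (limma, adjusted p = 0.000362), that of CLDN7 was 0.30 (adjusted p = 0.000185) and that of OCLN was -0.76 (adjusted p = 0.000148). TJP1 changed to -0.19 (limma, adjusted p = 0.0215) and F11R to -0.15, at which it was no longer called (limma, adjusted p = 0.0512). All 7 kept their direction.

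Rescaling to TPM, which fixes the sum of length-corrected levels in each library, moved the median of all tested genes to -0.12 and gave 2613 higher and 4725 lower calls. The 7 tight junction genes kept their directions and calls on this scale, with CLDN3 at 0.56, CLDN7 at 0.29 and OCLN at -0.95.

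The order of the levels changed at 2 places. In CTR, CLDN4 stood first, followed by CLDN7, then F11R and CLDN3, whose libraries overlapped, then TJP1, CLDN12, OCLN, CLDN2 and CLDN1. In miR-8485, CLDN7 stood ahead of CLDN4 and CLDN3 ahead of F11R, with no overlap between neighbours. The other five genes kept their ranks. This order rests on the gene lengths behind the FPKM, 4702 bases for CLDN4 and 2492 for CLDN7. In fragments, CLDN4 stayed above CLDN7 in miR-8485, with 5887, 5712 and 6359 against 3370, 3223 and 3420. Whether these lengths match the transcripts of these cells was not tested. In FPKM, the ratio of CLDN7 to CLDN4 was 0.609 ± 0.0150 in CTR and 1.05 ± 0.0341 in miR-8485 (SD, n = 3 each). The ratio of CLDN3 to CLDN4 was 0.186 ± 0.0136 and 0.388 ± 0.00835. With the length trend removed, the CTR ratio of CLDN7 to CLDN4 and the corrected fold changes gave 0.969 in miR-8485, so CLDN7 then did not pass CLDN4, and that of CLDN3 to CLDN4 gave 0.326. Both ratios and this correction of them were chosen after the values were seen, and without the correction the exact permutation test gave p = 0.1 for each, the smallest that 3 against 3 libraries allow.

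The shares of single claudins in the claudin mRNA lay apart between the groups, while the sums overlapped. The 6 claudin genes summed to 173, 165 and 170 FPKM in CTR and to 177, 169 and 176 FPKM in miR-8485. The libraries of both groups lay in the same range, with means of 169 ± 4.39 and 174 ± 4.36 FPKM (SD, n = 3 each). The log2 difference was 0.04 (exact permutation test, two-sided, p = 0.3), and on the TPM scale it was -0.08 (exact permutation test, p = 0.2), so the direction of this small difference turned with the scaling. CLDN4 made up 53.5% ± 0.837 of the sum in CTR and 39.8% ± 0.464 in miR-8485. CLDN7 held 32.6% ± 0.310 in CTR and 41.9% ± 0.887 in miR-8485, and CLDN3 held 9.93% ± 0.571 and 15.5% ± 0.421. A share within a library does not depend on the scaling between libraries, but these shares were not corrected for the length trend. These shares also rest on the gene lengths behind the FPKM. CLDN12 held 3.62% ± 0.132 and 2.58% ± 0.214, while CLDN2 held 0.240% and 0.137% and CLDN1 0.0833% and 0.0418% (SD, n = 3 each). The 6 shares did not overlap between the groups, and each gave p = 0.1 in the exact permutation test, the smallest possible here, and 0.1 after adjustment over the 6.

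**Figure D3:**
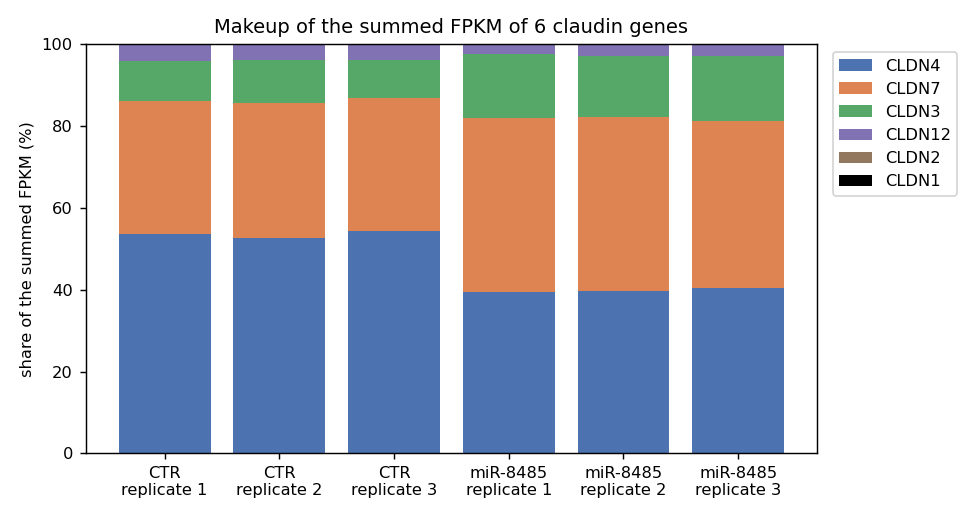
Share of each of the 6 claudin genes in their summed FPKM, in percent, stacked for each of the 6 libraries. CLDN4 takes 52.7% to 54.4% of the bar in the CTR libraries and 39.4% to 40.3% in the miR-8485 libraries, while the parts of CLDN7 and CLDN3 are larger in miR-8485, and CLDN2 and CLDN1 are too small to see.

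The rest of the tight junction was followed with 57 further genes. Of these, 7 were at 0 in every library, 19 lay below the filter, and 31 were tested. Of the tested genes, 10 were called higher, 7 lower and 14 were not called, at a median log2 fold change of 0.00. This is a share of 17 in 31 called, where 59.6% were called over all genes. On the TPM scale the same 31 genes gave 7 higher and 10 lower calls, where all 12349 genes gave 2613 and 4725. The balance of directions in this list thus turned with the scaling, and lower calls became more frequent over all genes as well.

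Of 18 other claudins, 6 were at 0 in every library and 9 lay below the filter. CLDN15, a cation channel claudin of the gut, rose from 5.60 ± 0.231 to 7.75 ± 1.06 FPKM (SD, n = 3 each, log2 fold change 0.45, limma, adjusted p = 0.00481). CLDN9 fell from 1.42 ± 0.364 to 0.618 ± 0.103 FPKM (SD, n = 3 each), on 37, 60 and 61 fragments in CTR and 23, 19 and 28 in miR-8485 (log2 fold change -1.06, limma, adjusted p = 0.00965). It passed the filter through its CTR libraries alone. CLDN23 stood at 3.62 ± 0.469 and 2.80 ± 0.412 FPKM, with overlapping libraries, and was not called (log2 fold change -0.36, limma, adjusted p = 0.0502), though it was called lower under 5 of 16 alternatives, among them TPM (adjusted p = 0.0201) and the removed length trend (adjusted p = 0.0149).

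Occludin belongs to the MARVEL family, and both other MARVEL genes of the junction, MARVELD2 and MARVELD3, were called higher. Of 4 tested genes for MARVEL and tricellular junction proteins, 3 were called higher and 0 lower, where 29.1% and 30.5% were over all genes. MARVELD2 encodes tricellulin, which seals the points where 3 cells meet, and it lies 48 kb from OCLN on chromosome 5, with 2 listed genes between them, neither with a mean FPKM of at least 1. It measured 3.93, 3.39 and 4.0 FPKM in CTR and 5.04, 5.31 and 5.22 FPKM in miR-8485 (log2 fold change 0.45, limma, adjusted p = 0.00178). The ratio of MARVELD2 to OCLN was 0.753 ± 0.0589 in CTR and 1.86 ± 0.0864 in miR-8485 (SD, n = 3 each, exact permutation test, p = 0.1, the smallest possible). MARVELD3 rose by 0.36 (limma, adjusted p = 0.0066), and ILDR1, an angulin that recruits tricellulin, rose from 0.908 ± 0.257 to 2.12 ± 0.487 FPKM (SD, n = 3 each, log2 fold change 1.15, limma, adjusted p = 0.00436), passing the filter through its miR-8485 libraries. LSR, the angulin with the highest level, stood at 118 and 116 FPKM and was not called (log2 fold change -0.03, limma, adjusted p = 0.633). MARVELD2, MARVELD3 and LSR were named after their values were seen.

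The 5 immunoglobulin-like relatives of JAM-A included 2 tested genes, and both were called lower, where 30.5% of all tested genes were. CXADR, the coxsackievirus and adenovirus receptor, went from 10.05 to 8.26 FPKM (log2 fold change -0.28, limma, adjusted p = 0.00216). ESAM went from 4.94 to 3.78 FPKM (log2 fold change -0.38, limma, adjusted p = 0.0161). The call of ESAM was lost under 4 of 16 alternatives. The other three lay below the filter and were not called in the fit of all genes above 0. Among them JAM2, a closer relative of F11R, had 10, 14 and 11 fragments in CTR and 17, 25 and 28 in miR-8485, higher in every miR-8485 library (log2 fold change 0.58, limma, adjusted p = 0.265). CXADR, ESAM and JAM2 were named after their values were seen.

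Polarity proteins bind JAM-A and ZO-1 and set the place of the junction. Of 9 tested polarity genes, 2 rose, 2 fell and 5 were not called, which is 4 of 9 called where 59.6% were over all genes. PARD6A was at 3.21, 2.82 and 3.08 FPKM in CTR and at 6.70, 6.61 and 6.25 FPKM in miR-8485 (log2 fold change 1.08, limma, adjusted p = 1.8e-05). Its paralog PARD6B was at 10.2, 7.99 and 10.5 FPKM in CTR and at 4.59, 3.94 and 3.94 FPKM in miR-8485 (log2 fold change -1.17, limma, adjusted p = 0.00011). In FPKM, PARD6A was thus the lower of these paralogs in every CTR library and the higher in every miR-8485 library. Its ratio to PARD6B in FPKM was 0.321 ± 0.0297 in CTR and 1.57 ± 0.110 in miR-8485. This order rests on the gene lengths behind the FPKM, 1488 bases for PARD6A and 4726 for PARD6B. In fragments, PARD6A stayed below PARD6B in miR-8485, with 179, 178 and 177 against 390, 337 and 355. PRKCI, which encodes the atypical protein kinase C iota bound by PAR6 proteins, fell from 6.24 ± 0.326 to 2.83 ± 0.284 FPKM (SD, n = 3 each, log2 fold change -1.12, limma, adjusted p = 4e-05). Its paralog PRKCZ stood at 3.96 and 4.58 FPKM and was called higher by 0.20 (limma, adjusted p = 0.0274), a call lost under 7 of 16 alternatives, with 0.09 on the TPM scale (limma, adjusted p = 0.243). The third PAR6 gene, PARD6G, stood at 6.76 and 7.02 FPKM and was not called (log2 fold change 0.06, limma, adjusted p = 0.516). The paralog ratio, PRKCZ and PARD6G were chosen after their values were seen.

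Among 9 tested scaffold and plaque genes, 2 were higher and 1 lower, or 3 of 9 called where 59.6% were over all genes. The higher call of AMOTL2, at 0.20, was lost under 9 of 17 alternatives, and this gene was named after its values were seen. AMOTL1, an angiomotin-like protein of the junction, fell from 3.34 ± 0.347 to 1.08 ± 0.110 FPKM (SD, n = 3 each), the largest fall among the 31 tested genes (log2 fold change -1.54, limma, adjusted p = 4.7e-05). CGN encodes cingulin, which binds ZO-1 and the cytoskeleton, and it was at 8.27, 7.06 and 9.37 FPKM in CTR and at 12.5, 13.9 and 14.4 FPKM in miR-8485. With a log2 fold change of 0.73 (limma, adjusted p = 0.00079), CGN rose where TJP1 fell, and it was named after its values were seen. Of 4 tested genes for signalling and traffic proteins at the junction, 2 were higher and 1 lower, or 3 of 4 called where 59.6% were over all genes. In this group RAB13, a small GTPase that carries proteins to the junction, rose from 4.59 ± 0.884 to 9.05 ± 0.949 FPKM (SD, n = 3 each, log2 fold change 0.98, limma, adjusted p = 0.00077). Among the genes below the filter, 1 of 19 was called in the fit of all genes above 0, in which 22.1% of genes were called. This was BVES, a membrane protein of the junction, with 152, 100 and 151 fragments in CTR and 17, 23 and 22 in miR-8485 (log2 fold change -2.21, limma, adjusted p = 0.0017), named after its values were seen.

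**Figure D4:**
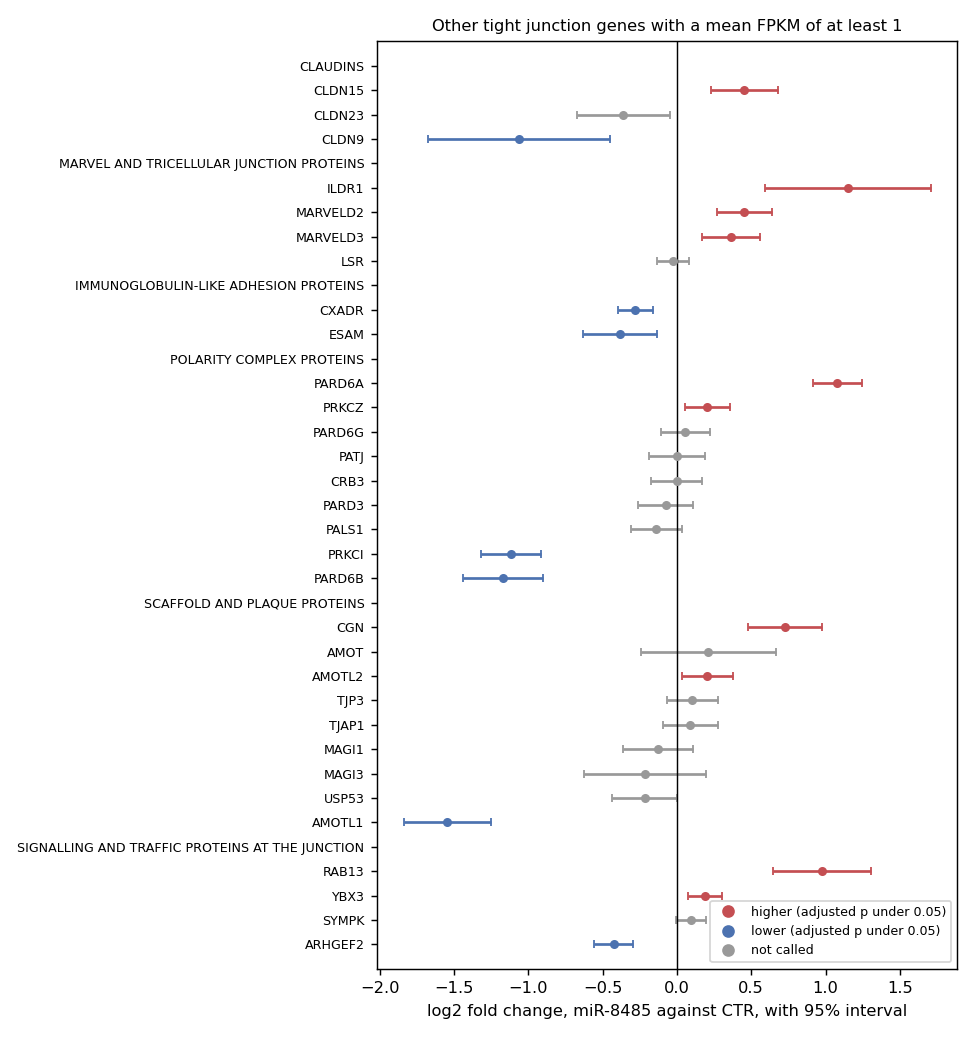
Log2 fold changes with 95% intervals of the 31 other tight junction genes tested, miR-8485 against CTR, grouped by role (red higher, blue lower, grey not called). ILDR1 at 1.15 and PARD6A at 1.08 lie at the high end, and AMOTL1 at -1.54 and PARD6B at -1.17 at the low end.

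Adherens junctions and desmosomes lie below the tight junction and hold cells together. Of 23 genes for them, 21 were tested, with 6 called higher, 6 lower and 9 not called, at a median log2 fold change of -0.05. The 12 of 21 called are near the 59.6% over all genes. On the TPM scale 5 were higher and 11 lower, where all 12349 genes gave 2613 and 4725. CDH1, the E-cadherin gene, stood at 19.7 ± 0.694 and 19.0 ± 0.297 FPKM (SD, n = 3 each) and was not called (log2 fold change -0.05, limma, adjusted p = 0.378). CDH1 was named after its values were seen. NECTIN1 had the largest fall, from 7.67 ± 0.863 to 2.88 ± 0.224 FPKM (SD, n = 3 each, log2 fold change -1.38, limma, adjusted p = 2.7e-05). VCL, the vinculin gene, changed by -0.84 and AFDN, the afadin gene, by -0.53 on the log2 scale (limma, adjusted p = 0.00022 and 0.00107). VCL overlaps AP3M1 on the opposite strand, which stood at 8.18 FPKM in CTR and 10.5 FPKM in miR-8485. PERP, a desmosome protein, rose from 73.8 ± 2.33 to 109 ± 1.29 FPKM and JUP, the plakoglobin gene, from 113 ± 5.44 to 149 ± 1.87 FPKM (SD, n = 3 each), with log2 fold changes of 0.57 and 0.41 (limma, adjusted p = 2.7e-05 and 0.00023). PLEKHA7 rose by 1.30 (limma, adjusted p = 2.1e-05), but it overlaps the same-strand gene AC116533.1, which stood at 293 and 398 FPKM, far above the 2.76 and 6.92 FPKM of PLEKHA7.

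Several transcription factors are known to act on junction genes, among them the SNAI and ZEB repressors, which bind the E-box CACCTG in promoters of epithelial genes, and the GRHL, KLF and CDX factors. Of 23 such genes, 12 were tested, with 3 called higher, 4 lower and 5 not called, at a median log2 fold change of -0.11. The 7 of 12 called are near the 59.6% over all genes. CDX2, the intestinal homeobox factor, was at 16.2, 15.5 and 16.4 FPKM in CTR and at 29.4, 27.0 and 28.3 FPKM in miR-8485 (log2 fold change 0.81, limma, adjusted p = 1.4e-05). GRHL2, a factor known to act on CLDN4, was at 4.17, 4.96 and 4.92 FPKM in CTR and at 7.11, 7.38 and 6.83 FPKM in miR-8485 (log2 fold change 0.59, limma, adjusted p = 0.00054). In miR-8485, GRHL2 mRNA was higher and CLDN4 mRNA was lower. SNAI1 was at 11.4, 11.7 and 13.3 FPKM in CTR and at 6.47, 5.90 and 5.29 FPKM in miR-8485 (log2 fold change -1.03, limma, adjusted p = 6.6e-05). SNAI1 mRNA was thus lower in all 3 miR-8485 libraries. The part of any of these factors in the changes of the tight junction genes was not tested. TCF3, which also binds E-boxes, rose by 0.31, while KLF4 changed by -1.0 and OVOL1 by -0.73 on the log2 scale (limma, adjusted p = 0.00052, 2.5e-05 and 0.00176). Of the 10 factors below the filter, OVOL2 was called higher in the fit of all genes above 0, from 0.288 to 1.28 FPKM (log2 fold change 1.79, limma, adjusted p = 0.00737), and it was named after its values were seen.

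**Figure D5:**
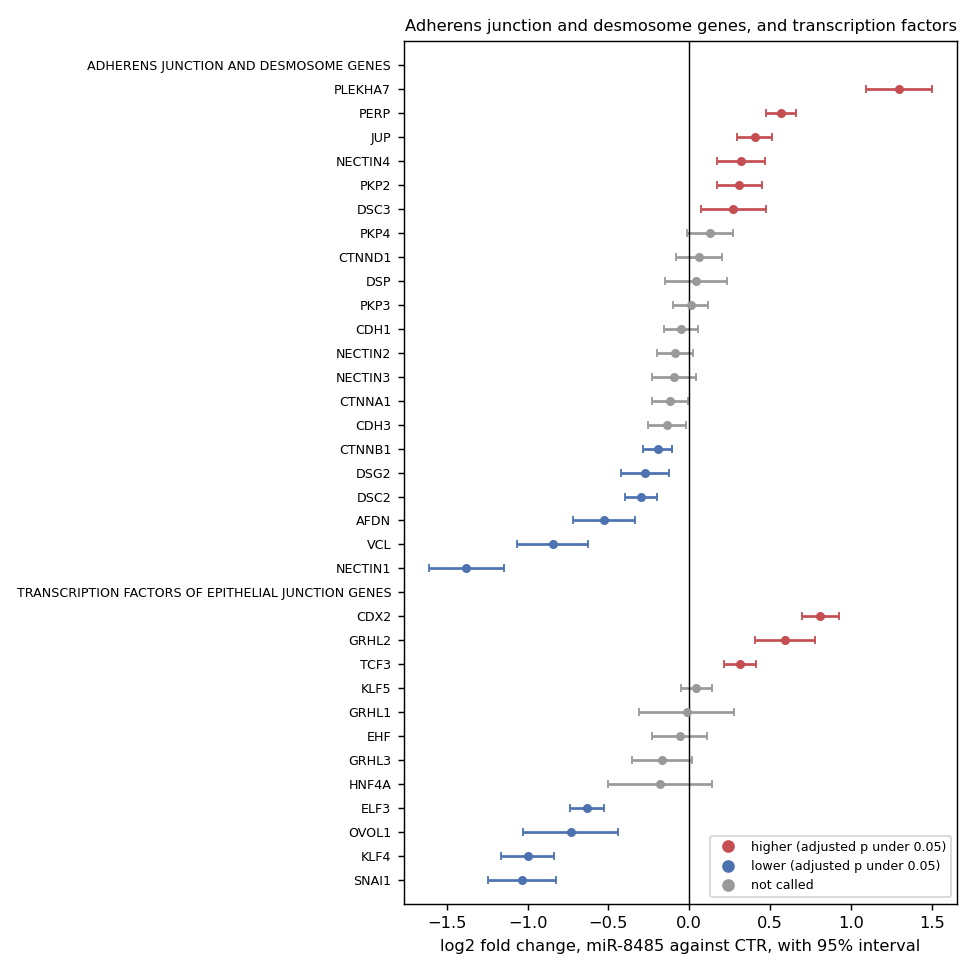
Log2 fold changes with 95% intervals of 21 adherens junction and desmosome genes and 12 transcription factors, miR-8485 against CTR (red higher, blue lower, grey not called). PLEKHA7 at 1.30 and CDX2 at 0.81 lie highest in their lists, and NECTIN1 at -1.38 and SNAI1 at -1.03 lowest.

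Since SNAI1 moved, the E-box CACCTG and its reverse complement CAGGTG, which are 1 motif read on both strands, were searched in the promoters of the tight junction genes. The promoters were RefSeq windows of 300 bases (GRCh38.p14), 250 before and 50 after each start site, and 8 of the 9 genes, all but F11R, had at least 1 window. At least 1 copy was found in 20.6% of all 35116 windows of that length and at least 2 copies in 3.49%. CLDN7 had 5 copies in 1 of its 2 windows, with first bases at -174, -135, -20, -9 and 6 from the start site. OCLN had 1 and 2 copies in its 2 windows, CLDN3 had 1 copy at base 37, and TJP1 had 1 copy in 1 of 4 windows. The windows of CLDN1, CLDN2, CLDN4 and CLDN12 held 0 copies. The stretches below show 1 or 2 of the copies of each gene with matches, 5′ to 3′ on the strand of the gene, with the E-boxes in capitals. They lie at chr17:7262476-7262504 on the minus strand, at chr7:73770221-73770249 on the minus strand, at chr5:69492503-69492531 and chr5:69492646-69492674 on the plus strand and at chr15:29969120-29969148 on the minus strand.
CLDN7: tatactCAGGTGcgcccCACCTGtccgcc
CLDN3: ccacaaagccacaggCAGGTGcaggcgca
OCLN, window 1: catccgagtttCAGGTGaattggtcaccg
OCLN, window 2: ctaggacgcagCAGGTGggactcgcggcg
TJP1: cggccggcgcgCAGGTGgcccggcctcgc
The genes with matches included both that rose, CLDN7 and CLDN3, and 2 of those that fell, OCLN and TJP1. A match here describes letters in the promoter, and binding was not measured.

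The genes most like OCLN in pattern were sought among 10720 tested protein-coding genes, by the Euclidean distance over the 6 libraries of log2(FPKM + 0.1) centred on the CTR mean. The closest was ZIC2 at a distance of 0.0810 (log2 fold change -0.85), followed by ADIPOR2 at 0.106 (-0.86) and ZFP36 at 0.136 (-0.80). ZIC2 went from 8.40 to 4.61 FPKM, ADIPOR2 from 23.7 to 13.0 FPKM and ZFP36 from 34.2 to 19.6 FPKM. None of these genes belonged to the junction lists.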

How the data were processed

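RNA-seq was measured in 6 libraries of HCT116 cells, grouped by the sample labels into 3 CTR and 3 miR-8485 libraries. The study's methods call them independent biological replicates. The authors trimmed reads with fastp 0.23.1, mapped them to hg38 with HISAT2 2.0.5 and counted fragments with featureCounts 1.5.0-p3, per the labels and methods, then tested the counts with DESeq2. The annotation release and strand setting of the counting were not given in the sources used here. The authors deposited these counts as FPKM, the unit used here, with no further scaling between libraries. Since FPKM divides by the library total, abundant genes can shift all others. Every value above 0 (100% per library) was, within a tolerance, a whole multiple of what 1 fragment is worth, which gave the fragments and the depth. The tolerance was 0.01 of a fragment plus a part that grew with the count, so this check says little for the highest counts. Of 58735 genes, 26967 were at 0 in every library. All columns of measurements were matched to samples (0 left out). MIR8485 itself was at 0 fragments in all 6 libraries. Intervals and limits from fragments cover counting error only.

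The linear models of limma 3.58.1 (R 4.3.3) were fitted to log2(FPKM + 0.1), using a variance trend and no block, for the 12349 genes whose mean over all libraries was 1 FPKM or more. Fold changes are on that scale, which understates those of low genes. Genes below the filter were taken from a fit of all 31768 genes above 0. Sums, shares and ratios were compared by exact permutation tests over libraries, which cannot go below p = 0.1. The fits were also run on simulated data, in which far fewer genes changed than were called here. That run does not show how the fits perform on these data. Same-numbered libraries did not deviate together (correlations 0.0668, 0.0335 and -0.064), so the numbers were not used as pairs. The rest used scipy 1.17.1, pandas 2.3.3, numpy 2.4.6 and matplotlib 3.10.9 under Python 3.11.15.

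The tight junction genes and all lists (57 other tight junction genes, 23 adherens junction and desmosome genes, 23 transcription factors, 7 epithelial markers and 11 markers of other cell types) were chosen with earlier results of these data known. Named were all 9 tight junction genes, every other claudin at a mean of 1 FPKM or more, the 3 strongest rises and 3 strongest falls among the called genes of each other list whose libraries did not overlap, and the 3 protein-coding genes closest to the most changed tight junction gene. The fits were repeated with quantile normalization, with TPM, with median-of-ratios scaling, with the length trend removed, with a pseudocount of 0.01 or 1, with a filter at 5 FPKM or none, with the replicate number as a block, with eBayes lacking the variance trend, with voom on the recovered fragments and with each library left out. For CLDN1 and CLDN2 the last 2 were run without a filter, which was chosen after seeing the data, as was the length correction of the claudin ratios. 3′ UTRs came from GENCODE release 44 on GRCh38 and promoters from RefSeq GRCh38.p14.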

Additional observations from a re-analysis of the deposited data

How the results depend on the processing

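The direction of each of the 9 tight junction genes held under every alternative run. Of 132 alternative fold changes, 124 kept their side of the threshold, and the other 8 all belonged to F11R, as given above. The number of tight junction genes called higher was 2 throughout, and the number called lower was 4 to 5, also with 1 library left out. OCLN was not tested at a mean FPKM of at least 5. CLDN1, not called anywhere, ranged from -1.63 in voom to -0.19 without miR-8485 replicate 2, and CLDN2 from -0.81 to -0.39. At a mean FPKM of at least 5, the other tight junction genes gave 5 higher and 3 lower calls among 15 tested. The adherens junction and desmosome genes gave 3 higher and 6 lower among 17. Over all 6878 genes tested at that filter, 2303 were higher and 2417 lower. Rescaling to TPM gave 11 lower adherens junction and desmosome genes and turned the log2 difference of summed claudin FPKM to -0.077. Fewer genes are tested under the stricter filter, and TPM lowered the median of all genes. With the replicate number as a block, which does not pair these libraries, 2 tight junction genes were higher and 5 lower. The other tight junction genes then gave 9 higher and 7 lower calls, the adherens junction and desmosome genes 6 and 8, and the transcription factors 3 and 4. Over all 12349 genes, the fit with the block gave 3634 higher and 3754 lower calls. With 1 library left out, the same lists gave 8 to 10 and 6 to 8, 5 to 7 and 6 to 8, and 3 and 4, and the CLDN4 share differed by -14.1 to -13.3 points. All 12349 genes then gave 3124 to 3561 higher and 3382 to 3663 lower calls. Groups of 3 libraries are too small for a test of single outlying libraries.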
